A study of Homo sapiens with 24 samples.

Results

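The genes described here encode 10 neuronal RNA-binding proteins of 4 families: ELAVL2, ELAVL3 and ELAVL4; NOVA1 and NOVA2; RBFOX1, RBFOX2 and RBFOX3; CELF3 and CELF4. They were taken as a named list and matched by Ensembl gene ID, and all 10 were present in each of the 3 deposited count tables, which together held 80527 gene IDs. The members and the other gene lists below were chosen with earlier results of these data known. Their counts set beside all genes are therefore descriptions only. The study depleted FAM167A (also called DIORA1) in a pair of human neuroblastoma cell lines and measured polyadenylated RNA by bulk RNA-seq in 24 libraries. In the first experiment SK-N-SH cells received an siRNA pool against FAM167A (5 libraries) or a non-targeting siRNA (5 libraries). In the second, SK-N-SH cells carried CRISPR interference with SpCas9-KRAB and a guide against FAM167A (3 libraries) or the control guide sgGal4 (3 libraries). In the last, SK-N-AS cells carried the same CRISPR interference with a FAM167A guide (4 libraries) or sgGal4 (4 libraries). Cas9-KRAB is thus shared by knockdown and control cells in both CRISPR interference experiments. The labels do not say whether these cells were clones or pools, nor whether the numbered replicates were separate cultures, so the p-values below measure only the spread between these libraries, which may be technical.

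ELAVL proteins (also called Hu proteins) bind AU-rich and U-rich stretches of mRNAs and generally raise the stability or translation of their targets; ELAVL1 is found in most cell types, and ELAVL2, ELAVL3 and ELAVL4 mark neurons and neuron-like tumours such as neuroblastoma. NOVA and RBFOX proteins bind YCAY and GCAUG elements near alternative exons and set whether these exons are included in neuronal transcripts. CELF proteins bind GU-rich elements and act on splicing, mRNA decay and translation; CELF1 and CELF2 are broad, whereas CELF3 and CELF4 are mostly neural. In bulk RNA, fewer cells that express a gene and less of its RNA per cell cannot be told apart.

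The coordinates below are those given by both CRISPR interference tables, on GRCh38, the build named in the submitters' processing notes. ELAVL2 (ENSG00000107105) lay on the minus strand at chr9:23690104-23826337, ELAVL3 (ENSG00000196361) on the minus strand at chr19:11451326-11481046, and ELAVL4 (ENSG00000162374) on the plus strand at chr1:50024029-50203772. NOVA1 (ENSG00000139910) and NOVA2 (ENSG00000104967) were on the minus strands of chromosomes 14 and 19, RBFOX1 (ENSG00000078328) on the plus strand of chromosome 16, and RBFOX2 (ENSG00000100320) and RBFOX3 (ENSG00000167281) on the minus strands of chromosomes 22 and 17. CELF3 (ENSG00000159409) was on the minus strand at chr1:151700058-151716803 and CELF4 (ENSG00000101489) on the minus strand of chromosome 18. All were annotated as protein-coding genes, so the 10 genes were spread over 8 chromosomes. The CELF4 gene holds an antisense gene with 386 reads against 14279 for CELF4 in the SK-N-SH siRNA libraries, and RBFOX2 shares its strand with an overlapping gene with 2656 reads against 119350 in the SK-N-AS libraries. CELF3 has an antisense gene with 102 reads against 2533 in SK-N-AS. The strand setting of the counting is not stated, so reads of these genes and their overlapping partners may not be separable. In SK-N-AS the antisense gene of CELF4 had 22 reads against 32 for CELF4 itself, so the few CELF4 reads there are uncertain.

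Stretches of promoter are shown for 3 members that fell together under CRISPR interference in SK-N-SH cells, as described further on, so that their upstream regions can be compared. They are RefSeq sequences on GRCh38.p14 and cover the bases from 250 to 101 upstream of the annotated start; 8 of the 10 genes had an entry (not ELAVL3 or RBFOX2), the start farthest upstream was used where there were several, and only stretches outside the gene in every table are given. Capitals mark matches to the GC box GGGCGG or the E-box CAGCTG on either strand; the 2 motifs do not overlap. They stand at chr9:23826341-23826490, chr14:26598134-26598283 and chr1:151716904-151717053, each on the minus strand.
ELAVL2: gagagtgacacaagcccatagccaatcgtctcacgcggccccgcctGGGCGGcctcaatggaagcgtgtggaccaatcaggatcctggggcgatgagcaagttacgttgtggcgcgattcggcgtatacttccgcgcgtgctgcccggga
NOVA1: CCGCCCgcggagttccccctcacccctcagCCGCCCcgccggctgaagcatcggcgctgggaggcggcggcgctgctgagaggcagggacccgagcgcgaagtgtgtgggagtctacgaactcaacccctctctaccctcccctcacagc
CELF3: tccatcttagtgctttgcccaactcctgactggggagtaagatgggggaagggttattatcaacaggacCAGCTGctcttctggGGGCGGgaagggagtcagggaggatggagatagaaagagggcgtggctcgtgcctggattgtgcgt
The stretch of RBFOX3, the other member with one outside the gene, is not shown, since RBFOX3 had too few reads to test there, and held none of the motifs. The GC box was thus found in 3 of the 4 members with such a stretch, all but RBFOX3. Of 35115 RefSeq promoter windows of the same length 25.8% held it. The E-box was found only in the stretch of CELF3, against 8.46% of all windows. All windows include several per gene and were neither chosen by position nor matched for G and C content, so these shares are not like for like. Whether the motifs have a part in the fall was not tested. The stretches held 62.7% G and C in ELAVL2, 71.3% in NOVA1 and 56% in CELF3, against a median of 56% over all windows. Of another motif, AGATAA, which GATA factors recognise, no copy was found in the 3 stretches, against 6.05% of all windows.

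Library totals were 71464698 to 90255175 counts in the siRNA experiment, 11690515 to 21628076 in the SK-N-SH CRISPR interference experiment and 29985858 to 104455853 in SK-N-AS, and no library held the same values as another. FAM167A was at 65.2 ± 5.13 CPM (counts relative to library size, with TMM scaling within each experiment) in siRNA-treated SK-N-SH cells and 188 ± 12.49 CPM in their controls (SD, n = 5 each). It was at 3.22 ± 0.588 CPM and 242 ± 12.7 CPM under CRISPR interference in SK-N-SH (SD, n = 3 each), and at 10.2 ± 0.739 CPM and 95.1 ± 3.56 CPM in SK-N-AS (SD, n = 4 each). The labels thus held in each experiment, but the depletion was deeper under CRISPR interference. In SK-N-AS 91.1% of the small counts, from 1 to 10, were even, against 37.8% in the SK-N-SH CRISPR interference table and 62.5% in the siRNA table, so a SK-N-AS count of 2 may stand for 1 fragment and tests on low SK-N-AS counts may then be too firm. Epithelial, endothelial and glial markers were near the floor in SK-N-SH libraries, with summed levels of at most 8.86, 3.04 and 5.63 CPM over 6, 5 and 6 genes. In SK-N-AS the epithelial sum was 24.9 to 28.3 CPM in knockdown and 31.2 to 33.5 CPM in control libraries, mostly from CLDN4 (25.8 and 31.3 CPM in the mean, log2 change -0.28 ± 0.05), while ESRP1 had no read. The blood marker PTPRC was at 451 CPM in SK-N-AS knockdown libraries and 542 CPM in SK-N-AS controls, while CD3E and HBB had no read there; the part of PTPRC and CLDN4 in the SK-N-AS results was not tested.

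Control cells of SK-N-SH had a fuller set of these genes than control cells of SK-N-AS. ELAVL3, ELAVL4, both NOVA genes, RBFOX1, RBFOX2, CELF3 and CELF4 were higher in SK-N-SH, and ELAVL2 alone among those tested was higher in SK-N-AS. Each line came from its own experiment, with its own library depth, so line and experiment cannot be told apart. By edgeR's quasi-likelihood test on the control libraries scaled together, 8 of the 9 members tested were higher and 1 was lower in SK-N-SH, while 40.9% of 17729 genes were higher and 39.2% were lower. NOVA1, RBFOX1 and CELF4 had under 10 reads in every SK-N-AS control and passed the low-count filter through SK-N-SH alone, so their calls say little; of the other 6 members 5 were higher and 1 was lower. The median log2 difference of those 6 was 2.82, beside 0.0178 for all genes tested.

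**Figure D1:**
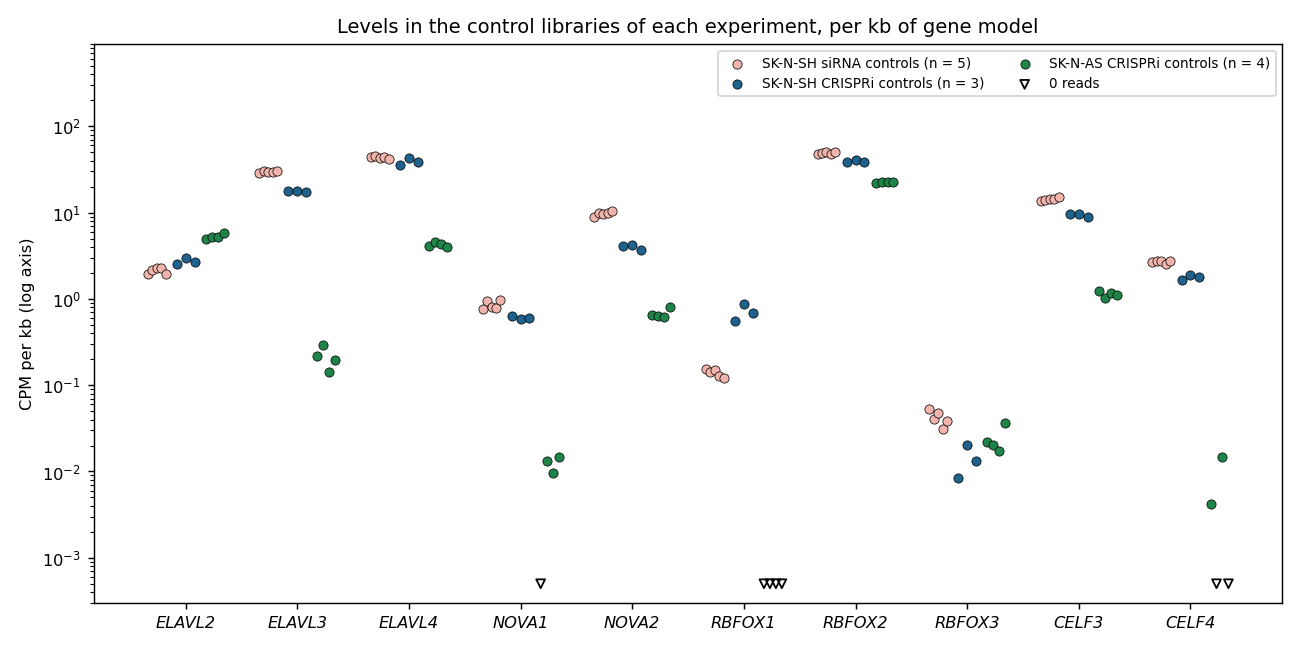
Levels of the 10 genes in the control libraries, as CPM per kb of gene model on a log axis, for SK-N-SH siRNA controls (n = 5), SK-N-SH CRISPR interference controls (n = 3) and SK-N-AS CRISPR interference controls (n = 4); each point is a library and triangles are libraries with 0 reads. RBFOX2 was the highest in mean in every control group, and RBFOX1 had no read in SK-N-AS.

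Divided by gene length, RBFOX2, the family member that is also found outside neurons, led in each control group, with 39.4 ± 1.48 CPM per kb in SK-N-SH and 22.6 ± 0.349 CPM per kb in SK-N-AS CRISPR interference controls. In SK-N-SH the next were ELAVL4 at 39.2 ± 3.83 CPM per kb, whose libraries overlapped with those of RBFOX2, ELAVL3 at 17.8 ± 0.307, CELF3 at 9.4 ± 0.469, NOVA2 at 4.01 ± 0.291, ELAVL2 at 2.73 ± 0.229 and CELF4 at 1.79 ± 0.119 CPM per kb (SD, n = 3). RBFOX1 at 0.702 ± 0.164 and NOVA1 at 0.605 ± 0.0184 CPM per kb overlapped with each other, and RBFOX3, the gene of the neuronal marker NeuN, was last at 0.0139 ± 0.00586 CPM per kb. In SK-N-AS the order after RBFOX2 was another: ELAVL2 at 5.29 ± 0.347, ELAVL4 at 4.25 ± 0.215, CELF3 at 1.13 ± 0.0791, NOVA2 at 0.675 ± 0.082 and ELAVL3 at 0.213 ± 0.0624 CPM per kb, none of which overlapped with its neighbour (SD, n = 4). RBFOX3, NOVA1 and CELF4 followed at 0.0239, 0.00938 and 0.00477 CPM per kb, NOVA1 and CELF4 overlapping, and RBFOX1 had no read.

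On the CPM scale, ELAVL3 was at 85.6, 85.9 and 83.2 CPM in SK-N-SH CRISPR interference controls, against 1.03, 1.40, 0.682 and 0.943 CPM in those of SK-N-AS, a log2 difference of 6.51 ± 0.09 (SE). CELF4 was at 10.9, 12.47 and 11.6 CPM in SK-N-SH, against 0.0271, 0, 0.0974 and 0 CPM in SK-N-AS, where the 4 libraries held 10 reads in all, 8 of them in replicate 3 (log2 difference 8.11 ± 0.28, and 9.59 without that library). ELAVL2, the member that went the other way, was at 12.9, 15.2 and 13.9 CPM in SK-N-SH and at 25.4, 26.8, 26.9 and 29.7 CPM in SK-N-AS (log2 difference -0.93 ± 0.08). In all 3 genes every SK-N-SH library lay on 1 side of every SK-N-AS library, and the edgeR adjusted p-values were 3.91e-35 for ELAVL3 and 6.18e-13 for ELAVL2; that of CELF4 is left out because of the filter. For the others the log2 differences were 3.23 ± 0.05 for ELAVL4, 6.12 ± 0.33 for NOVA1, 2.58 ± 0.09 for NOVA2, 3.05 ± 0.08 for CELF3 and 0.83 ± 0.04 for RBFOX2. RBFOX1 had 358 reads in the SK-N-SH controls and 0 reads in the 4 SK-N-AS controls. With 3 counts allowed over the SK-N-AS group, it was at least 617.1-fold higher in SK-N-SH, for counting error only. If 2 SK-N-AS counts stand for 1 fragment, the bound is 308.6-fold. Both bounds take the SK-N-SH level as exact. They also leave out genes that overlap RBFOX1 on its strand, which held 33 reads over all SK-N-AS libraries.

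The pair of SK-N-SH control groups also differed. The siRNA controls were higher than the CRISPR interference controls in 7 of 10 members and lower in 2, by edgeR, while 37.2% of 21679 genes were higher and 31.3% lower. RBFOX3 had 1, 3 and 3 reads in the CRISPR interference controls and entered this count through the siRNA controls alone; of the other 9, 6 were higher and 2 lower. RBFOX1, a splicing regulator of mature neurons, was at 1.23 to 1.56 CPM (median 1.43) in the 5 siRNA controls, against 5.54, 8.84 and 6.92 CPM in the CRISPR interference controls (log2 difference -2.45 ± 0.16, adjusted p = 6.91e-13). NOVA2 was at 78.0 to 91.3 CPM (median 85.8) in siRNA controls and at 36.1, 36.4 and 31.9 CPM in CRISPR interference controls (log2 difference 1.19 ± 0.06). ELAVL4 differed by 0.04 ± 0.05 (adjusted p = 0.439), and by 0.12 (adjusted p = 0.0303) without control replicate 2 of the CRISPR interference experiment. Levels of 1 line therefore moved between experiments by up to 2.45 on the log2 scale among these genes, and each knockdown below is set against its own controls.

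Under CRISPR interference against FAM167A in SK-N-SH cells, members of all 4 families fell. ELAVL2, ELAVL3 and ELAVL4 were 3.69- to 4.31-fold lower, CELF3 and CELF4 3.34- and 4.53-fold, NOVA2 and RBFOX1 2.41- and 2.22-fold, NOVA1 1.49-fold and RBFOX2 1.09-fold. By edgeR 9 of 9 members tested were lower at an adjusted p under 0.05, in an experiment in which 28.0% of 15391 genes were called lower and 27.7% higher. As the members were chosen with earlier results of these data known, this count is a description only. Scaled by library size alone, 69.6% of all calls were lower in place of 50.3%, the median of all genes was -0.1361 in place of -0.0068, and the 9 members kept their calls. The median log2 change of the 9 members was -1.74.

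**Figure D2:**
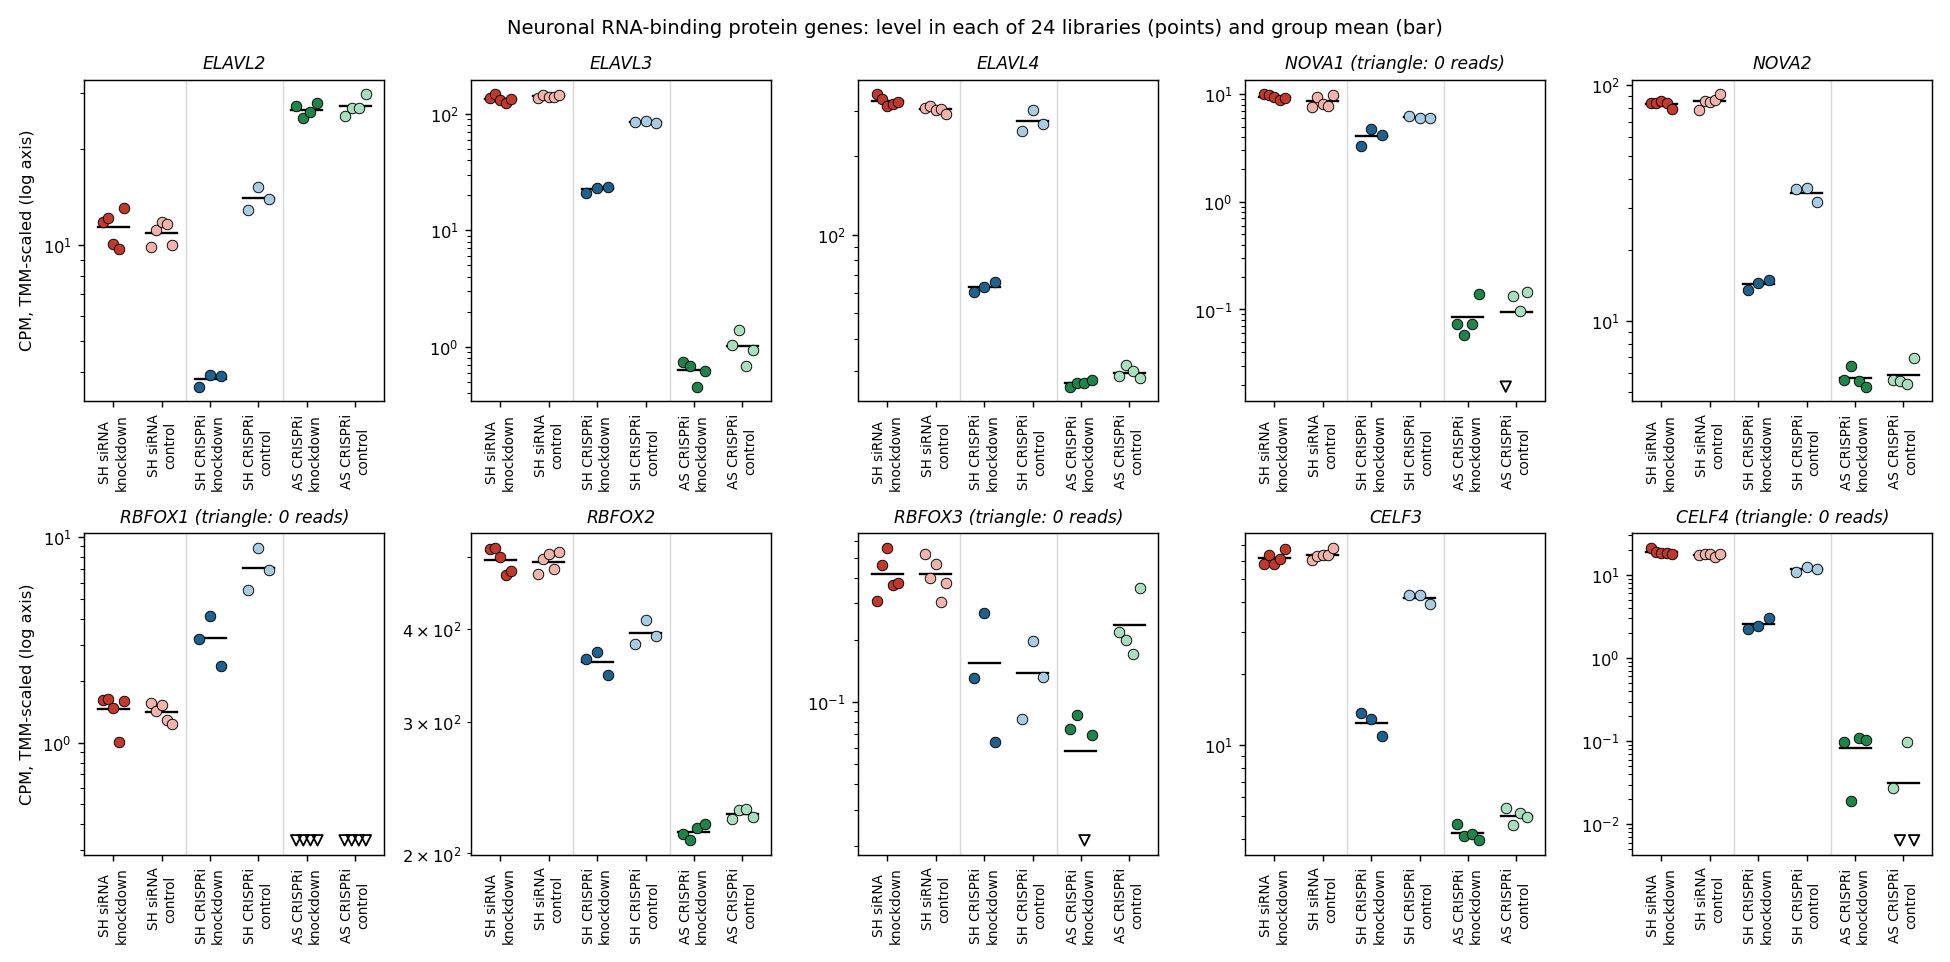
Level of each gene in each of the 24 libraries, as TMM-scaled CPM on a log axis, knockdown left of control in each experiment; bars are group means and triangles are libraries with 0 reads. In SK-N-SH CRISPR interference the knockdown points of 9 genes (all but RBFOX3) lie below their control points, and in the siRNA experiment the 2 groups overlap for every gene.

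Among the ELAVL genes, ELAVL4 (HuD), which stabilises transcripts such as GAP43 in neurons, was at 60.2, 63.4 and 66.1 CPM in knockdown libraries, against 250.2, 302 and 266 CPM in controls, a log2 change of -2.11 ± 0.06 (edgeR adjusted p = 1.61e-17). ELAVL3 (HuC) was at 21.0, 23.2 and 23.4 CPM in knockdown libraries, against 85.6, 85.9 and 83.2 CPM in controls (-1.91 ± 0.06, adjusted p = 5.49e-26). ELAVL2 (HuB) was at 3.60, 3.92 and 3.90 CPM in knockdown libraries, against 12.9, 15.2 and 13.9 CPM in controls (-1.89 ± 0.13, adjusted p = 7.17e-16). No knockdown library of these 3 genes reached the lowest control library, and the knockdown libraries of each differed from each other by far less than from the controls. Over all genes tested, 30.5% had every knockdown library below every control library, and 7.86% were called lower by at least 1 log2 unit.

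The CELF genes of neurons, which act on splicing and mRNA stability, also fell. CELF4 was at 2.22, 2.43 and 3.07 CPM in knockdown libraries, against 10.9, 12.47 and 11.6 CPM in controls (-2.18 ± 0.14, adjusted p = 6.63e-16). CELF3 was at 13.6, 12.8 and 10.9 CPM in knockdown libraries, against 42.8, 43.0 and 39.3 CPM in controls (-1.74 ± 0.08, adjusted p = 1.73e-20). Both groups were apart in both genes. CELF4 rested on 118 reads in the knockdown libraries and 585 in the controls, so its counting error is larger than that of CELF3.

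Of the splicing regulators, NOVA2, which governs exons of synaptic and axonal transcripts, was at 13.5, 14.5 and 14.9 CPM in knockdown libraries, against 36.1, 36.4 and 31.9 CPM in controls (-1.27 ± 0.08, adjusted p = 1.56e-16). Its paralog NOVA1 was at 3.27, 4.72 and 4.22 CPM in knockdown libraries, against 6.28, 5.94 and 5.996 CPM in controls (-0.57 ± 0.15, adjusted p = 0.00163). RBFOX1 was at 3.21, 4.12 and 2.36 CPM in knockdown libraries, against 5.54, 8.84 and 6.92 CPM in controls (-1.15 ± 0.18, adjusted p = 3.66e-06). Control libraries of RBFOX1 were the most spread of the 3, yet the lowest of them stood above the highest knockdown library. RBFOX2 was at 364, 372 and 347 CPM in knockdown libraries, against 382, 411 and 391 CPM in controls (-0.13 ± 0.04, adjusted p = 0.00588). Its groups did not overlap, but the change was small, and without knockdown replicate 3 it was -0.10 with an adjusted p of 0.0848. RBFOX3 had 7 reads in the knockdown libraries and 7 in the controls, too few to test.

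With the siRNA pool in the same line none of the 10 members was called, in either direction, and the knockdown and control libraries of each overlapped, while 6.08% of all genes had every knockdown library below every control library. By edgeR 0 of 10 had an adjusted p under 0.05, 2 had an unadjusted p under 0.05 (ELAVL4 and CELF4, both higher), and DESeq2 called 1, ELAVL4 (log2 change 0.11, adjusted p = 0.0371). Over all 21018 genes 9.53% were called (2.55% higher and 6.98% lower), 26.7% of the calls being higher; scaled by library size alone 55.2% of the calls were higher. The median log2 change of the members was 0.03, beside 0.0085 for all genes.

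The highest-expressed members were the most tightly bounded. ELAVL4 was at 346, 331, 312, 318 and 324 CPM in siRNA knockdown libraries, against 307, 312, 301, 304 and 291 CPM in siRNA controls (0.11 ± 0.04, edgeR adjusted p = 0.107), and it passed the threshold when scaled by library size alone (0.16, adjusted p = 0.00962). ELAVL3 was at 137, 147, 132, 124 and 135 CPM in knockdown libraries, against 136, 144, 140.3, 139 and 144 CPM in controls (-0.06 ± 0.04, adjusted p = 0.419). RBFOX2 was at 513, 514, 499.6, 472 and 479 CPM in knockdown libraries, against 474, 498, 504, 481 and 508 CPM in controls (0.01 ± 0.04, adjusted p = 0.949). The ranges overlapped in all 3 genes, ELAVL4 by the least. Of the others, CELF4 stood at 0.12 ± 0.06, NOVA1 at 0.14 ± 0.08, ELAVL2 at 0.06 ± 0.08, CELF3 at -0.04 ± 0.05 and NOVA2 at -0.03 ± 0.04. RBFOX1 and RBFOX3, with 597 and 166 reads in the knockdown libraries, had wider errors of 0.16 and 0.27.

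The difference between the responses to CRISPR interference and to siRNA in SK-N-SH was tested as an interaction over both experiments. The response was lower under CRISPR interference for 8 of 10 members, by -2.31 ± 0.15 for CELF4, -2.23 ± 0.08 for ELAVL4, -1.96 ± 0.17 for ELAVL2, -1.86 ± 0.08 for ELAVL3, -1.71 ± 0.10 for CELF3, -1.25 ± 0.09 for NOVA2, -1.22 ± 0.27 for RBFOX1 and -0.73 ± 0.17 for NOVA1 on the log2 scale (edgeR adjusted p from 1.36e-21 to 0.00104). Of 23287 genes 16.4% differed in this direction, 52.1% of all that differed, or 73.1% when scaled by library size alone. For RBFOX2 the difference was -0.15 ± 0.07 (adjusted p = 0.094; -0.31 with an adjusted p of 0.000134 when scaled by library size alone) and for RBFOX3 0.12 ± 0.80 (adjusted p = 0.992). The depth of the FAM167A depletion, the reagent and the library preparation differed between these experiments together and cannot be told apart.

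**Figure D3:**
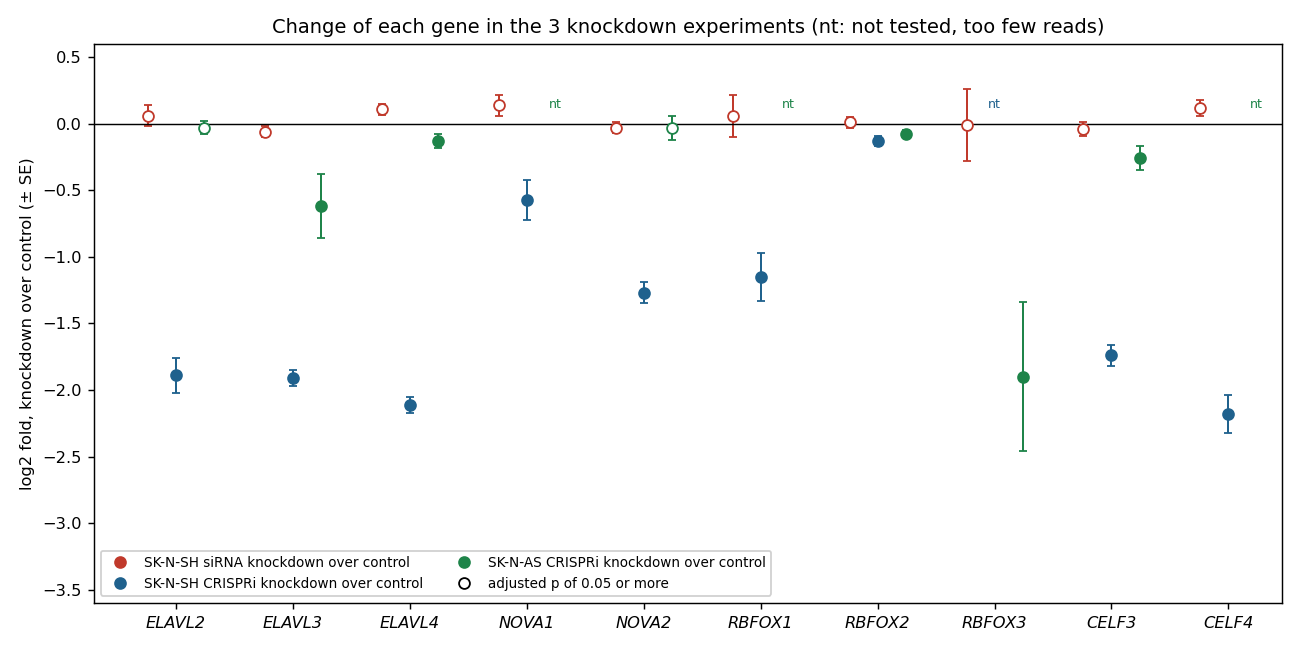
Log2 change, knockdown over control, of each gene in the 3 experiments, with SE bars; filled points had an edgeR adjusted p under 0.05 and nt marks genes with too few reads to test. The SK-N-SH CRISPR interference points lie at -0.57 or below except for RBFOX2 at -0.13, and the siRNA points lie between -0.06 and 0.14.

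In SK-N-AS cells, CRISPR interference against FAM167A left ELAVL2 and NOVA2 without a detectable change. The other members tested had log2 changes from -0.08 for RBFOX2 to -1.90 for RBFOX3, with calls that hung on single libraries, as described further on. By edgeR 5 of the 7 members tested were lower, while 15.5% of 19277 genes were lower and 15.2% were higher. RBFOX3 entered that count through its control libraries alone; of the other 6, 4 were lower, and their median log2 change was -0.10, beside -0.0024 for all genes. ELAVL2, per length the leading neuronal ELAVL gene of this line, was at 27.2, 25.1, 26.2 and 27.9 CPM in knockdown libraries, against 25.4, 26.8, 26.9 and 29.7 CPM in controls (-0.03 ± 0.05, adjusted p = 0.667). NOVA2 was at 5.59, 6.45, 5.58 and 5.26 CPM in knockdown libraries, against 5.59, 5.53, 5.40 and 6.92 CPM in controls (-0.03 ± 0.09, adjusted p = 0.857). The groups of both genes overlapped almost fully.

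ELAVL4 was at 26.2, 27.1, 27.1 and 27.8 CPM in SK-N-AS knockdown libraries, against 28.7, 31.6, 30.0 and 28.2 CPM in controls (-0.13 ± 0.05, edgeR adjusted p = 0.0344), with the groups just apart. RBFOX2 was at 212, 208, 216 and 219 CPM in knockdown libraries, against 223, 229, 229.6 and 224 CPM in controls (-0.08 ± 0.03, adjusted p = 0.0166), also apart. ELAVL3 was at 0.739, 0.692, 0.456 and 0.6245 CPM in knockdown libraries, against 1.03, 1.40, 0.682 and 0.943 CPM in controls (-0.62 ± 0.24, adjusted p = 0.0498), and its groups overlapped. CELF3 was at 4.65, 4.13, 4.21 and 3.96 CPM in knockdown libraries, against 5.42, 4.60, 5.17 and 4.94 CPM in controls (-0.26 ± 0.09, adjusted p = 0.0365), also overlapping. RBFOX3 had 6, 9, 0 and 4 reads in knockdown libraries, against 16, 6, 14 and 22 reads in controls (-1.90 ± 0.56, adjusted p = 0.00785). RBFOX3 passed the filter on low counts through its control libraries, and, most of its counts being even, it may rest on fewer fragments still. Of all genes tested 14.6% had every knockdown library below every control library.

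These calls in SK-N-AS hung on single libraries. ELAVL3 was no longer called without knockdown replicate 2, 3 or 4 or control replicate 1, 2 or 4 (edgeR adjusted p from 0.0639 to 0.158). CELF3 was not called without knockdown replicate 2, 3 or 4 or control replicate 1, 3 or 4 (0.0573 to 0.127), nor ELAVL4 without knockdown replicate 1, 2 or 3 or control replicate 2 or 3 (0.0621 to 0.106). RBFOX2 was not called without knockdown replicate 2 or control replicate 3 (0.117 and 0.0536), nor RBFOX3 without control replicate 4 (0.0626). Leaving out 1 library, 1 to 4 members were called in place of 5, and the estimates stayed below 0 in each case. NOVA1 with 24 and 21 reads, CELF4 with 22 and 10 reads, and RBFOX1 with none in knockdown and control libraries were not tested; 0 reads allow up to 0.0101 and 0.0121 CPM of RBFOX1 over each group, for counting error only.

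The responses to CRISPR interference differed between the lines for 6 of the 8 members with a value by the interaction test, CELF4 among them. The change in SK-N-SH minus that in SK-N-AS was -1.97 ± 0.07 for ELAVL4, -1.84 ± 0.13 for ELAVL2, -1.47 ± 0.12 for CELF3, -1.35 ± 0.19 for ELAVL3 and -1.23 ± 0.13 for NOVA2 on the log2 scale (edgeR adjusted p from 1.21e-25 to 7.79e-08), and 14.7% of 19862 genes differed in this direction. Of all genes that differed, 47.9% did so in this direction, or 73.1% when scaled by library size alone. For CELF4 it was -3.03 ± 0.66 (adjusted p = 0.00028), a value that rests on the 32 SK-N-AS reads and was -4.54 without SK-N-AS control replicate 3. For RBFOX2 it was -0.03 ± 0.05 (adjusted p = 0.67), or -0.17 (adjusted p = 0.00244) scaled by library size alone, and for NOVA1 -0.49 ± 0.59 (adjusted p = 0.605), while RBFOX1 and RBFOX3 gave no value. Without reads in SK-N-SH, CELF4 would not have passed the low-count filter of this test. The fall of RBFOX2 was thus not shown to differ between the lines, while ELAVL2 fell by 1.89 in SK-N-SH and stood at -0.03 in SK-N-AS, where its control level was the higher. FAM167A itself was depleted further in SK-N-SH, with a log2 change of -6.23 there and -3.22 in SK-N-AS, and the part of this in the difference was not tested.

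The make-up of the families moved with these changes. On the per-length scale, ELAVL2, ELAVL3 and ELAVL4 together made up 42.5 ± 0.832% of all ELAVL transcripts in SK-N-SH CRISPR interference knockdown libraries and 74.5 ± 1.27% in controls (SD, n = 3 each). The broad ELAVL1 did not pass the test in that experiment (136.7 ± 3.42 CPM in knockdown and 141.6 ± 3.53 CPM in control libraries, log2 change -0.05 ± 0.04, edgeR adjusted p = 0.293), and the summed level of the neuronal members was 14.6 ± 0.73 CPM per kb in knockdown and 59.7 ± 4.16 CPM per kb in control libraries. In the siRNA experiment the share was 79.3 ± 0.471% in knockdown and 78.5 ± 0.327% in control libraries (SD, n = 5 each), and in SK-N-AS it was 30.5 ± 0.587% and 30.2 ± 0.888% (SD, n = 4 each). The knockdown libraries of SK-N-SH under CRISPR interference thus lay between their own controls and SK-N-AS in this share, with no overlap.

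Within the 3 neuronal ELAVL genes the balance moved less. ELAVL4 made up 62.38 ± 0.57% of them in SK-N-SH CRISPR interference knockdown libraries and 65.5 ± 1.85% in controls, and ELAVL3 32.5 ± 0.514% and 29.9 ± 1.93% (SD, n = 3 each), so the genes fell nearly in proportion. In SK-N-AS ELAVL2 was the leading gene with 56.3 ± 1.18% in knockdown and 54.2 ± 2.43% in control libraries, and ELAVL3 contributed 1.44 ± 0.289% and 2.18 ± 0.609% (SD, n = 4 each). For the CELF family, CELF3 and CELF4 together made up 19.3 ± 0.85% of the per-length level in SK-N-SH CRISPR interference knockdown and 38.2 ± 0.994% in control libraries, while CELF1 made up 68.4 ± 0.752% and 42.9 ± 0.835%. NOVA2 made up 80.4 ± 2.35% of the NOVA level in those knockdown libraries and 86.9 ± 0.818% in controls. RBFOX2 made up at least 98.2% of the RBFOX level in the mean of every group. In SK-N-SH CRISPR interference the RBFOX total was 36.4 ± 1.39 CPM per kb in knockdown and 40.2 ± 1.65 CPM per kb in control libraries, without overlap (SD, n = 3 each). RBFOX2 was at 36.1 and 39.4 CPM per kb there and RBFOX1 at 0.319 and 0.702, so the difference in the total lay mostly in RBFOX2.

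**Figure D4:**
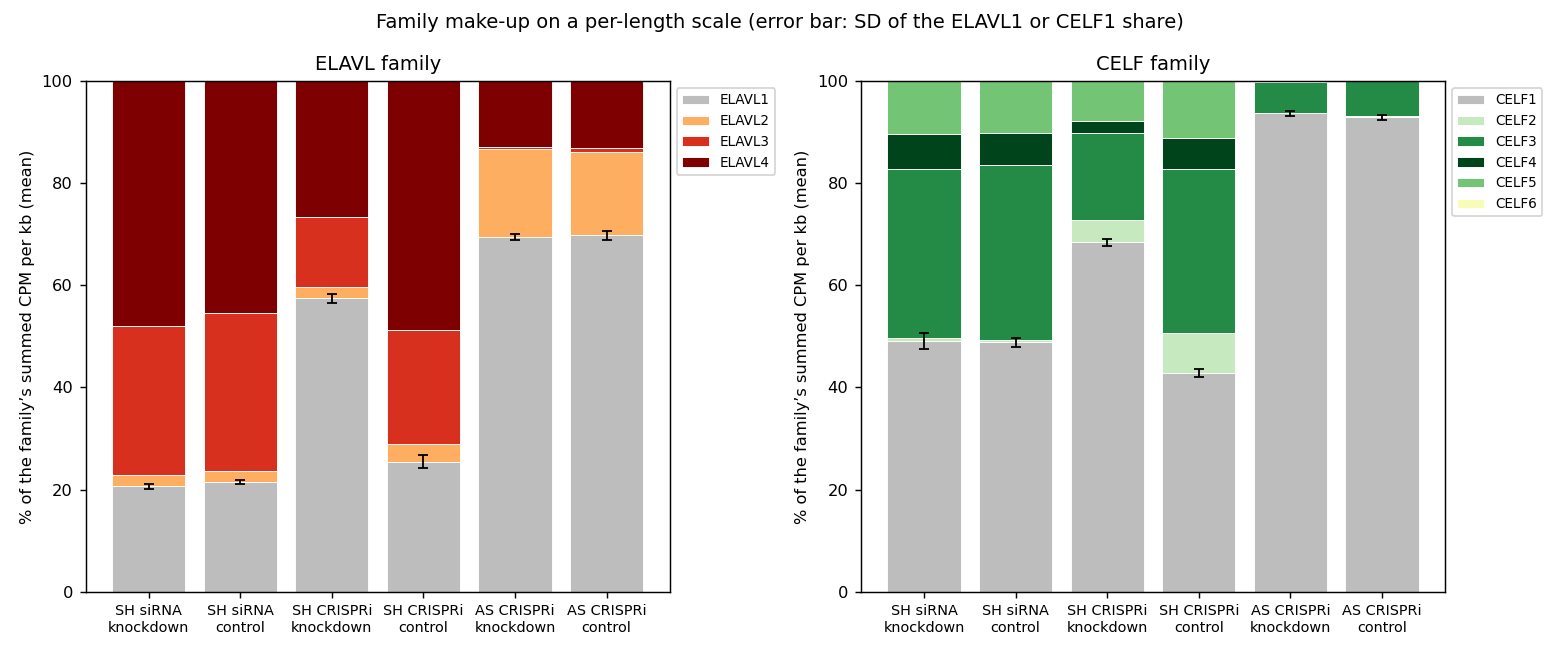
Mean share of each gene in the summed CPM per kb of the ELAVL family (left) and the CELF family (right) in the 6 groups, knockdown left of control; error bars are the SD of the ELAVL1 and CELF1 shares. The grey ELAVL1 block makes up 57.5% in SK-N-SH CRISPR interference knockdown and 25.5% in its controls, and differs little between knockdown and control in the other experiments.

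Of the 5 remaining members of the ELAVL and CELF families, CELF2 and CELF5, which are also rich in neurons, fell with the neuronal genes in SK-N-SH under CRISPR interference. CELF2 was at 7.91 ± 0.911 CPM in knockdown and 25.04 ± 1.402 CPM in control libraries (log2 change -1.66 ± 0.10), and CELF5 at 7.81 ± 0.592 and 19.6 ± 0.994 CPM (-1.33 ± 0.10; SD, n = 3 each; edgeR adjusted p = 1.75e-17 and 2.23e-14). CELF1 changed by -0.15 ± 0.04 (adjusted p = 0.00319) and CELF6 had too few reads to test. With siRNA CELF2 was the only one of the 4 tested that was called, and it rose (2.36 ± 0.394 CPM in knockdown and 1.55 ± 0.29 CPM in control libraries, 0.61 ± 0.16, adjusted p = 0.0137; SD, n = 5 each). In SK-N-AS only ELAVL1 of 3 tested was called (-0.11 ± 0.03, adjusted p = 0.00265).

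Other RNA-binding proteins moved in both directions in SK-N-SH under CRISPR interference. Of 20 other splicing regulators 16 were tested, 9 fell and 4 rose, with a median log2 change of -0.29, in an experiment in which 28.0% of all genes fell and 27.7% rose. SRRM3 (-1.53 ± 0.09) and its relative SRRM4 (-1.48 ± 0.11), which drive the inclusion of neuronal microexons, fell to 11.1 and 10.01 CPM in knockdown libraries, against 32.2 and 28.3 CPM in controls. KHDRBS3, a STAR-family splicing factor, fell by 1.09 ± 0.08, and MBNL1, which favours the splicing patterns of differentiated tissue, rose by 0.44 ± 0.04. HNRNPA1 fell too, with 915 CPM in knockdown and 1258 CPM in control libraries. PTBP1 and SRSF1, chosen after their values were seen, were lower in the mean, at 395.5 and 113.9 CPM in knockdown libraries, against 482.3 and 139 CPM in controls. PTBP3, MBNL2 and QKI, chosen likewise, were higher in the mean. They were at 81.7, 101.7 and 126.1 CPM in knockdown libraries, against 67.0, 77.8 and 100.3 CPM in controls. The falls in this list were thus not limited to neuronal factors. PTBP2, the neuronal polypyrimidine tract binding protein, was at 14.6 ± 1.54 CPM in knockdown and 16.7 ± 0.533 CPM in control libraries and was not called. Of 23 regulators of mRNA stability and translation 22 were tested, 7 fell and 8 rose, with a median of 0.0, shares near those of all genes. MSI1, a translational regulator of neural progenitors, fell by 1.97 ± 0.11 to 4.79 CPM in knockdown libraries, against 18.9 CPM in controls, while ZFP36L1, which promotes the decay of AU-rich mRNAs, rose by 0.85 ± 0.05, STAU2 by 0.74 ± 0.04 and IGF2BP2 by 0.73 ± 0.05 (edgeR adjusted p from 3.1e-18 to 1.04e-16).

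With siRNA, where 6.98% of all genes fell and 2.55% rose, 0 of the 18 other splicing regulators tested were called by edgeR (2 had an unadjusted p under 0.05), and 2 of 22 regulators of stability and translation were, both lower: IGF2BP2 (-0.61 ± 0.05, adjusted p = 1.91e-09) and ZFP36L1 (-0.34 ± 0.06, adjusted p = 0.000603). IGF2BP2 and ZFP36L1 thus had opposite signs with siRNA and with CRISPR interference in SK-N-SH. In SK-N-AS, where 15.5% of all genes fell and 15.2% rose, 8 of 18 splicing regulators tested fell and 4 rose; 4 of 23 regulators of stability and translation fell and 4 rose, shares near those of all genes. MSI1 fell there too (-1.31 ± 0.11, adjusted p = 9.88e-12; 2.33 ± 0.372 CPM in knockdown and 5.70 ± 0.388 CPM in control libraries, SD, n = 4 each), RBM38 fell by 0.43 ± 0.05, MBNL2 rose by 0.30 ± 0.03 and CPEB1 rose by 0.88 ± 0.12.

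Messages long known to be bound by neuronal ELAVL proteins did not move as a block. Of 6 such genes, 3 fell and 2 rose in SK-N-SH under CRISPR interference, with a median of -0.20 beside -0.0068 for all genes. GAP43, a growth cone protein, fell by 0.51 ± 0.08 and the transcription factor gene MYCN by 2.89 ± 0.38, MYCN from few reads (0.264 ± 0.118 CPM in knockdown and 2.04 ± 0.385 CPM in control libraries, SD, n = 3 each). CDKN1A, the gene of the cell cycle inhibitor p21, rose by 0.63 ± 0.04. In SK-N-AS GAP43 fell by 0.59 ± 0.06, CDKN1A rose by 0.92 ± 0.05 and FOS rose by 0.48 ± 0.12, and with siRNA CDKN1A fell by 0.20 ± 0.05 as the only call among the 6. RNA levels alone do not show whether any of these messages was more or less stable.

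**Figure D5:**
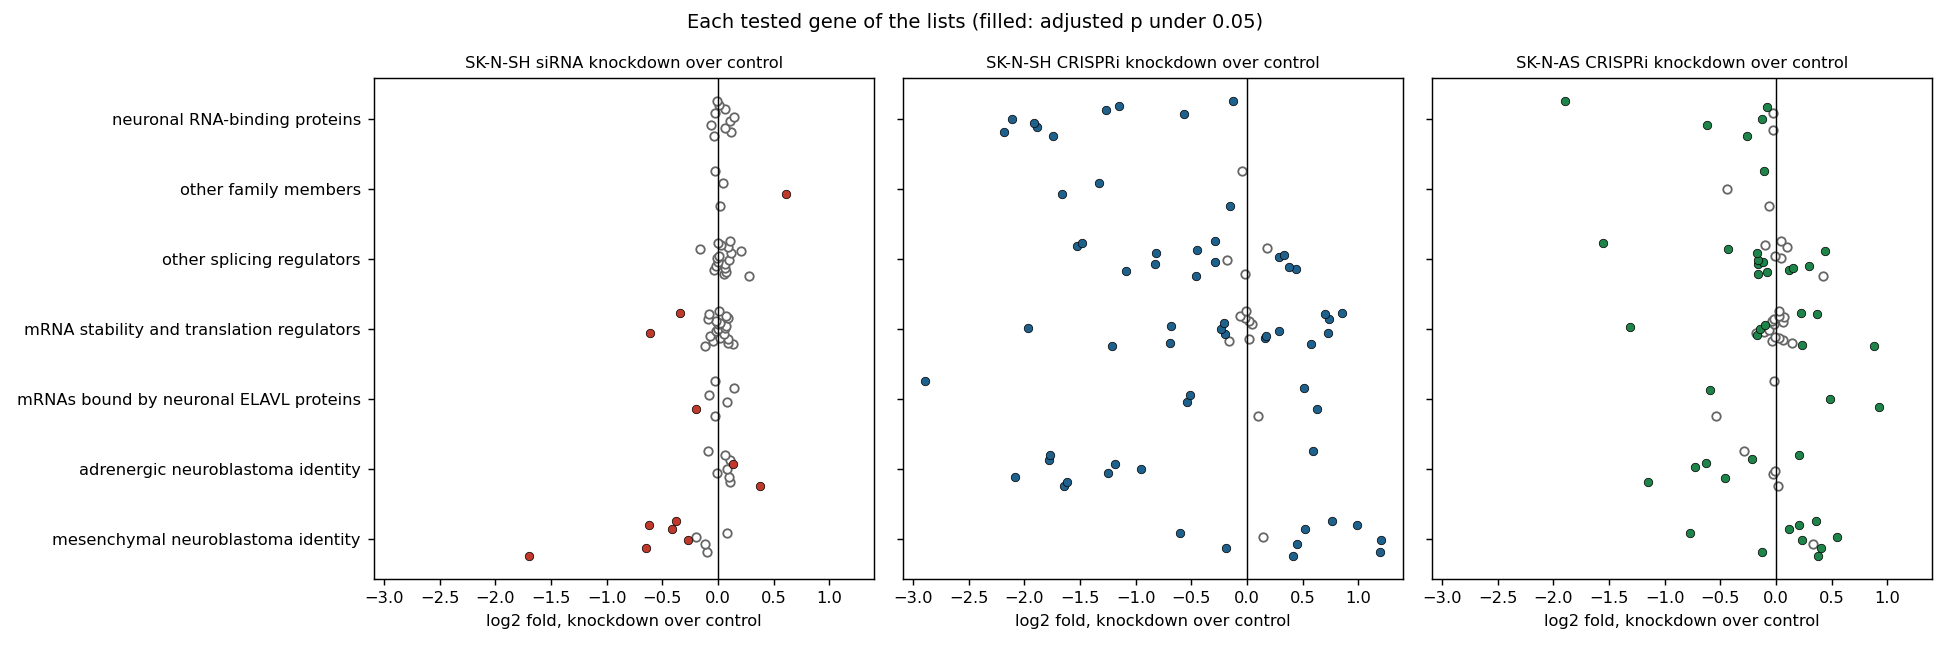
Log2 change, knockdown over control, of each tested gene of 7 lists in the 3 experiments, filled where the edgeR adjusted p was under 0.05. The neuronal RNA-binding protein genes lie between -2.18 and -0.13 in SK-N-SH CRISPR interference. There 8 adrenergic identity genes fell and 1 rose, and 7 mesenchymal identity genes rose and 2 fell, against 28.0% of all genes lower and 27.7% higher.

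Markers of neuroblastoma cell identity moved in the same libraries. Of 10 genes of adrenergic (sympathetic neuroblast) identity 9 were tested in SK-N-SH under CRISPR interference, where 8 fell and 1 rose, with a median log2 change of -1.62, against 28.0% of all genes lower and 27.7% higher. Their summed level was 962 to 1005 CPM in knockdown and 2309 to 2411 CPM in control libraries. GATA2, a transcription factor of sympathetic neuroblasts, fell by 2.08 ± 0.04. Of 10 mesenchymal identity genes 7 rose and 2 fell, with a median of 0.49, and PRRX1 rose by 1.20 ± 0.04. With siRNA 2 of 9 adrenergic genes tested rose and 6 of 10 mesenchymal genes fell, CD44 by 1.70 ± 0.05, against 2.55% of all genes higher and 6.98% lower. In SK-N-AS 5 of 10 adrenergic genes fell and 1 rose, and 7 of 10 mesenchymal genes rose and 2 fell, against 15.5% of all genes lower and 15.2% higher. The part of these marker changes in the fall of the RNA-binding protein genes was not tested. SOX10, the defining marker of Schwann cell precursors, had no read in any CRISPR interference library.

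The genes whose level across all 24 libraries was most like that of the leading member of each family were found among 13943 genes by Pearson's r of log2 CPM. The points share line, experiment and library preparation, so r is given as a description only. For ELAVL4 they were MGAT5 (0.997), PDZD4 (0.995) and APLP1 (0.994), and for CELF3 APLP1 (0.998), SNAP91 (0.996) and STMN2 (0.996), the last 2 being genes of synaptic vesicle endocytosis and of neuronal microtubules. For NOVA2 they were NRCAM (0.996), GSE1 (0.996) and BACH2 (0.995), and for RBFOX2 CLASP2 (0.996), LINC00641 (0.995) and KIAA1324L (0.994). APLP1, a neuronal relative of the amyloid precursor protein, was thus among the 3 nearest of both ELAVL4 and CELF3.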

How the data were processed

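RNA was prepared with TRIzol and a column kit and polyadenylated RNA was sequenced, per the labels' protocols. The authors deposited raw counts per gene in 1 table for each of the 3 experiments. The submitters' processing notes name GRCh38, bcl2fastq 2.20.0.422 and 2.20, CASAVA, FastQC 0.11.8, STAR 2.6.1d and featureCounts 1.5.1 without saying which made which table; strand setting and annotation release: not given in the sources used here. Library totals ran from 11690515 to 104455853 counts, and intervals and limits for counts of 0 (3 counts) cover counting error only.

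Samples were grouped by their labels, and knockdown was compared with control within each table. In R 4.3.3, edgeR 4.0.16 was used with filterByExpr (minimum count 10, minimum total 15), TMM scaling, a robust quasi-likelihood fit and Benjamini-Hochberg adjustment over every gene in the fit, with calls at an adjusted p under 0.05. Control groups of different tables, and differences between responses, were tested in fits over both tables, restricted to shared gene IDs. SE is the log2 change divided by the square root of the F statistic. CPM per kb uses the gene lengths of the siRNA table for all libraries, as the other tables give none. The procedure was also run on simulated counts in which only a small share of genes changed, in both directions. That run cannot check the scaling where many genes change, as under CRISPR interference.

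Alternatives were RLE size factors, no low-count filter, a filter at 1 CPM, the replicate number as a block, DESeq2 1.42.0 and leaving out each library. Added after seeing the data were scaling by library size alone, halved SK-N-AS counts and leaving out siRNA knockdown replicate 4 and control replicate 5 together. The members and gene lists were chosen with earlier results of these data known. Besides the members, genes were named by rule: of each list up to 4 called genes with the smallest adjusted p-values per comparison. In SK-N-SH under CRISPR interference SRRM4, PTBP1, PTBP2, PTBP3, MBNL2, QKI, SRSF1 and ELAVL1 fall outside it and were chosen after their values were seen. Values of some single genes of these lists are not reported here.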

Additional observations from a re-analysis of the deposited data

Results flagged for a closer look

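In 3 of 33 groups of 4 or 5 libraries with enough reads, a library stood apart from the others by Dixon's ratio of its gap to the range, where chance flags about 1 group in 20. NOVA2 was lowest in siRNA knockdown replicate 5, at 79.0 CPM (ratio 0.756). RBFOX1 was lowest in siRNA knockdown replicate 4, at 1.00 CPM (ratio 0.739). NOVA2 was highest in SK-N-AS control replicate 4, at 6.92 CPM (ratio 0.88).

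The response to CRISPR interference differed between SK-N-SH and SK-N-AS, by the interaction test, for ELAVL2 (-1.84), ELAVL3 (-1.35), ELAVL4 (-1.97), NOVA2 (-1.23) and CELF3 (-1.47), all as log2 change in SK-N-SH minus that in SK-N-AS. CELF4 was called too (-3.03), but it passed the low-count filter through SK-N-SH alone and had 32 reads over all SK-N-AS libraries, so its value says little. Within SK-N-SH the response to CRISPR interference minus that to siRNA differed for ELAVL2 (-1.96), ELAVL3 (-1.86), ELAVL4 (-2.23), NOVA1 (-0.73), NOVA2 (-1.25), RBFOX1 (-1.22), CELF3 (-1.71) and CELF4 (-2.31).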

How the results depend on the processing

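Of the values for single members under the alternatives, 981 kept direction and side of the threshold, 27 lost the call, 5 gained it and 18 changed sign, each of the 18 not called before or after. Scaled by library size alone, the siRNA changes of NOVA2, RBFOX3 and CELF3 were 0.02, 0.04 and 0.01, and RBFOX3 differed between CRISPR interference and siRNA by -0.04. With each library left out in turn, the other values that changed sign ranged from -0.01 to 0.02 for RBFOX2 and -0.14 to 0.09 for RBFOX3 with siRNA, from -0.07 to 0.01 for ELAVL2 and -0.09 to 0.07 for NOVA2 in SK-N-AS, from -0.01 to 0.12 for ELAVL4 between the SK-N-SH controls, and from -0.51 to 0.52 for RBFOX3 between CRISPR interference and siRNA. In the siRNA experiment the count of members higher was 1 with DESeq2 and 1 with library size alone, in place of 0. In SK-N-AS 3 members were lower without the low-count filter, 3 with the filter at 1 CPM and 3 with halved counts, in place of 5. With a library left out it was 1 to 4. The filter at 1 CPM removed ELAVL3 and RBFOX3 from the fit, and the other called members kept their calls there. Fits without a library hold fewer samples, and for the other settings the cause was not tested. Leaving out a library, 8 to 9 members were lower in SK-N-SH CRISPR interference, 6 differed between lines (CELF4 counted) and 8 between CRISPR interference and siRNA. Same-numbered samples did not deviate together (correlations of -0.136 to 0.048). The labels do not say whether the numbers pair them, and correlations near 0 cannot exclude that same-numbered samples were handled together. Among pairs with different numbers, siRNA knockdown replicate 4 and siRNA control replicate 5 did deviate together (0.295). What they share is not given by the labels and was not tested, and without both no member was called with siRNA. With the replicate number as a block 1532 genes changed in place of 2004 with siRNA, 8460 in place of 8582 in SK-N-SH CRISPR interference and 5894 in place of 5904 in SK-N-AS. Without the low-count filter the median gene differed by 0.4197 between the siRNA and CRISPR interference controls of SK-N-SH, in place of 0.08. Few reads limit RBFOX3 in SK-N-SH CRISPR interference and NOVA1, CELF4, RBFOX1 and RBFOX3 in SK-N-AS. The SK-N-AS libraries were the deeper ones, with 29985858 to 104455853 counts, against 11690515 to 21628076 in SK-N-SH CRISPR interference.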
